A study of Mus musculus with 8 samples.

Results

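The comparison is between activated B lymphocytes lacking Max (Max_KO, 2 libraries) and heterozygous control cells (control, 2 libraries), in a study that also held Myc-deficient (Myc_KO) and doubly deficient (double_KO) cells. It covers every gene of the deposited table with a log2 value of 0 or more, which is 1 RPM (reads per M effective reads), in at least 2 of the 8 libraries, and this rule kept 12489 of 15681 genes. The cells were mature splenic B lymphocytes, sorted from 8 to 10 weeks old mice and kept in RPMI medium containing 15% FBS. All groups received 20 µg/ml LPS, a ligand of Toll-like receptor 4, and 20 ng/ml IL-4, a cytokine that steers antibody class, until harvest at 72 h. The labels call the controls heterozygous without naming the allele. They name neither the promoter behind the deletion nor the mice behind each library, so p-values measure the spread between these libraries.

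Max is a small protein with a basic helix-loop-helix leucine zipper that dimerises with Myc, and the pair binds the DNA motif CACGTG, the E-box, to activate genes of growth and metabolism. Max also pairs with the repressors Mnt, Mxd1, Mxi1 and Mga, so that its loss removes a partner of activators and repressors alike. Mga carries Max into PRC1.6, a Polycomb complex known for silencing germline genes. In B cells, Myc is induced on activation and is needed for growth and proliferation.

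Max, at GRCm38 chromosome 12, 76937269 to 76962201 (ENSMUSG00000059436), the deleted gene, was measured at 16.4 and 15.5 RPM in the Max_KO libraries, against 55 and 54.5 RPM in the control libraries (log2 change -1.78 ± 0.12 SE, limma adjusted p = 0.000499). Both Max_KO libraries were below both controls, and whether the reads that are left come from a truncated transcript was not tested. All 15 B cell markers on the list passed the filter. Of these, 5 were called higher and 1 lower, against 21.8% higher and 18.5% lower among all genes. Without either control 3 were higher and 0 lower, and with a smooth trend on transcript length and GC removed 9 were higher and 0 lower. Cd79a, a signalling chain of the B cell receptor, was at 983 and 983 RPM in Max_KO, against 973 and 963 RPM in control, and was not called. Totals were 17.91 and 17.68 M estimated reads in Max_KO and 17.54 and 17.2 M in control, and transcripts of mitochondrial DNA took 2.96% and 2.63% of the reads in Max_KO and 5.69% and 4.93% in control. Xist, the RNA of the inactive X chromosome, was at 985 and 0.223 RPM in Max_KO and at 0.747 and 985 RPM in control, and Ddx3y of the Y chromosome showed the opposite pattern, so each group held 1 library with each. In these bulk samples, fewer cells of a type and less RNA per cell cannot be told apart.

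Limma called 5027 genes at an adjusted p under 0.05, which is 40.3% of those tested; 2720 (21.8%) were higher and 2307 (18.5%) were lower in Max_KO than in control. At least 2-fold changes were found for 678 higher and 896 lower genes, and at least 8-fold changes for 56 and 74. The median absolute log2 change was 0.4, against a median absolute difference of 0.19 between the Max_KO libraries and 0.13 between the control libraries. The libraries of the groups did not overlap for 9197 genes, which is 73.6% of those tested (38.3% higher and 35.4% lower in Max_KO). Of the called genes, 54.1% were higher with the deposited scaling and 65.6% with each library set to the same total, which moved the median log2 change of all genes from 0.02 to 0.12. Leaving out control replicate 1 gave 1229 called genes, leaving out control replicate 2 gave 1672, and 1082 genes were called in the full comparison and with any 1 of the 4 libraries left out.

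The changes followed transcript length and base composition. With the genes in 5 bins of equal size by the longest annotated transcript, the median log2 change was -0.3 in the bin of shortest genes (median length 1244 bases) and 0.36 in that of the longest (6575 bases). Of the shortest genes, 5.62% were called higher and 32.9% lower, while of the longest 45.2% were called higher and 9.11% lower. By GC content the medians were 0.25 in the lowest bin (42.4% GC) and -0.28 in the highest (58% GC). Differences between replicates did not follow this order to the same extent: from the shortest to the longest bin they ran from 0.02 to -0.06 in Max_KO and from 0.07 to -0.04 in control. For many of the lists and genes below, the value with a smooth trend on length and GC removed is given as well. The part of this trend in the gene groups was otherwise not tested. Counts below with a control left out come from fits that called fewer genes in all. Those fits took the spread between libraries from the 2 Max_KO libraries alone, whose median absolute difference was 0.19. Fits without a Max_KO library took it from the 2 controls alone, at 0.13. The part of this in calls lost or gained was not tested.

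**Figure D1:**
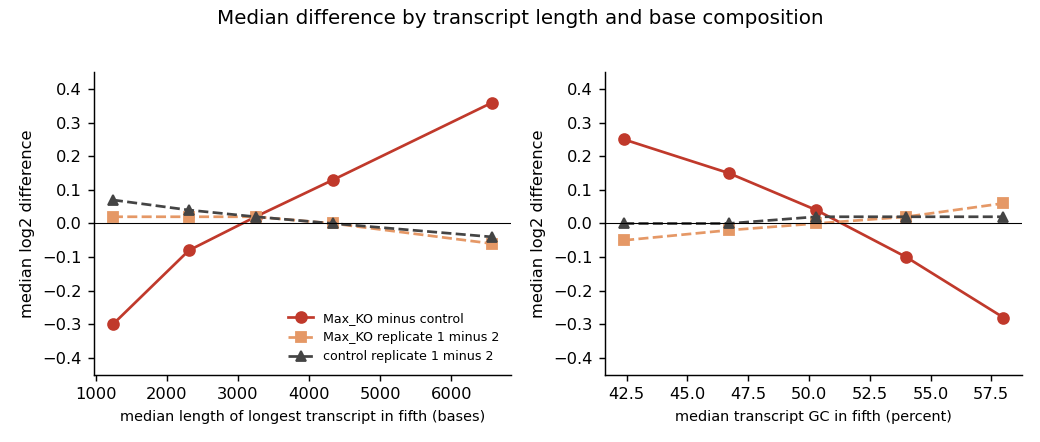
Median log2 difference (vertical axis) in 5 bins of the tested genes by transcript length in bases (left) and transcript GC in percent (right), for Max_KO minus control and for replicate 1 minus replicate 2 within each group. The line for Max_KO minus control climbs from -0.3 to 0.36 with length and falls from 0.25 to -0.28 with GC, while the replicate lines stay within 0.07 of 0.

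Among the 11 tested members of the Myc and Max network, 4 were called higher and 3 lower, against 21.8% and 18.5% of all genes. The repressors that pair with Max moved apart. Mnt was at 79.3 and 90.9 RPM in Max_KO, against 22.3 and 28.5 RPM in control (log2 change 1.75 ± 0.15 SE, limma adjusted p = 0.000786), and Mga was at 178 and 210 RPM, against 64.2 and 70.5 RPM (1.52 ± 0.11, adjusted p = 0.000644; 0.85 with the length and GC trend removed). Mxd1 was at 9.17 and 13.6 RPM in Max_KO, against 37.7 and 37.8 RPM in control (-1.75 ± 0.2, adjusted p = 0.00139). Both Max_KO libraries lay outside the control range for each of these genes. Mxi1 was at 25 and 15.4 RPM, against 36.2 and 43.1 RPM (-1.01 ± 0.23, limma adjusted p = 0.0144), a call lost without control replicate 1 (0.0899) and without control replicate 2 (0.134); alternatives spanned 2.96e-06 to 0.134, and the change was -0.66 without Max_KO replicate 2. Myc itself was at 192 and 176 RPM in Max_KO, against 111 and 116 RPM in control (0.69 ± 0.09, adjusted p = 0.00194), with both Max_KO libraries above both controls. The fourth higher member, Mlxip, which pairs with Mlx in glucose sensing, had a log2 change of 0.44 (adjusted p = 0.0418), a call lost without control replicate 1 (0.231), control replicate 2 (0.161) or Max_KO replicate 2 (0.0613), with 6.86e-05 to 0.31 over the alternatives; the change was 0.18 with the trend removed.

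**Figure D2:**
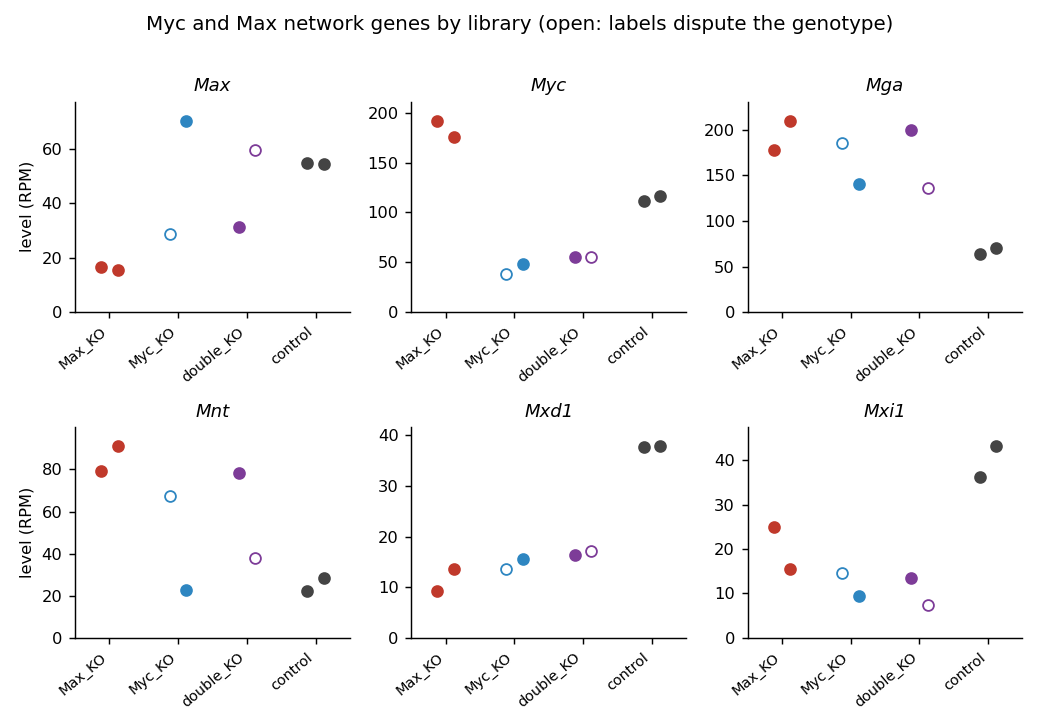
Level in RPM of 6 network genes in each library, from left to right Max_KO, Myc_KO, double_KO and control; open circles are 2 libraries whose title and description name different genotypes. Max is lowest in Max_KO, Myc is highest there, and Mnt and Mga lie above both controls in Max_KO.

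Genes that set Max loss apart from Myc loss were sought by comparing Max_KO with Myc_KO. Of the 2 Myc_KO and 2 double_KO libraries, Myc_KO replicate 1 and double_KO replicate 2 carry a title that names the other genotype, so the test used the 6 undisputed libraries, with 1 Myc_KO library assumed to vary like the other groups. It called 220 genes higher in Max_KO than in Myc_KO (1.76% of those tested) and 150 lower (1.20%); 810 and 771 were called without Max_KO replicate 1, and 867 and 792 without Max_KO replicate 2. With the descriptions taken as given the numbers were 4 and 9, and with the titles 304 and 210. Against double_KO, 3 genes were higher (0.0240%) and 21 lower (0.168%).

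Of the 220 genes, 76 were also called higher in Max_KO than in control; the 2 comparisons share the Max_KO libraries. In RefSeq promoters (GRCm38.p6, 250 bases before to 50 after the first listed start, both strands, since CACGTG reads the same on each), the E-box letters CACGTG were found in 26 of the 61 of these genes with a listed promoter (42.6%). The share was 10.6% of the 9331 tested genes with a listed promoter, 13.1% of the genes called higher than in control and 8.97% of those called lower. Among genes called higher in Max_KO than in Myc_KO it was 47 of 159 (29.6%), and among those called lower 2 of 70 (2.86%). These shares are a description of the letters in this window. Below are 150 bases of 5 of the 26, chosen after their values were seen to show the motif, in capitals, beside the genes described next.
Stag3 (chr5:138280279-138280428, + strand): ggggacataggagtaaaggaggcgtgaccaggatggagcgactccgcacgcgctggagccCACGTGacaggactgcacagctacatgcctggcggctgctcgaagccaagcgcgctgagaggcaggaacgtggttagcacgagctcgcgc
Mnt (chr11:74830734-74830883, + strand): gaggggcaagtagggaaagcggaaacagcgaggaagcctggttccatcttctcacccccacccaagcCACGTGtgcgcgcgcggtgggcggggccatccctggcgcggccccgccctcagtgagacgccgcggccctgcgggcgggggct
Pogk (chr1:166409809-166409958, - strand): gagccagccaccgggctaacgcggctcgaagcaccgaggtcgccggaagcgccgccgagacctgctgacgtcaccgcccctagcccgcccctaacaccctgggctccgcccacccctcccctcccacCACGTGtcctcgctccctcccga
Tef (chr15:81802476-81802625, + strand): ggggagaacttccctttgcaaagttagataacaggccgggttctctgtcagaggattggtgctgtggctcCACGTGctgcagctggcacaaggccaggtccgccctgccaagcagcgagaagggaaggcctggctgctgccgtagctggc
Pcx (chr19:4510222-4510371, + strand): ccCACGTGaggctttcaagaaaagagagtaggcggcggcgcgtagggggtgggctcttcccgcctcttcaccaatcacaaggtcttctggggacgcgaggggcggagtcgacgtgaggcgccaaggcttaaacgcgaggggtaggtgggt

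Stag3, a cohesin subunit of meiotic cells, was at 113 and 140 RPM in Max_KO, against 4.83 RPM in Myc_KO and 22.2 and 19.4 RPM in control (log2 change 2.6 ± 0.14 SE from control, limma adjusted p = 0.00042; 4.7 ± 0.18 from Myc_KO, adjusted p = 0.000568). In the undisputed double_KO library it was at 93.4 RPM, so it was above both controls in Max_KO and double_KO and below both in the Myc_KO library. Max stood at 31.2 RPM in that double_KO library and at 70.4 RPM in that Myc_KO library. In the disputed libraries Max was at 28.6 RPM in Myc_KO replicate 1 and at 59.8 RPM in double_KO replicate 2. By Max, each lay nearer to the undisputed library of the genotype in its title than to that of its description. By Trim30d, described below, each lay nearer to that of its description. Trim30d was at 90.5 RPM in the undisputed Myc_KO library and 30.8 RPM in that of double_KO. Its level was 77.6 RPM in the disputed Myc_KO replicate 1 and 46.4 RPM in double_KO replicate 2. Which label is right was not tested. In the disputed libraries Stag3 was at 73.9 RPM in Myc_KO replicate 1 and at 6.04 RPM in double_KO replicate 2, and with the descriptions taken as given its call against control was lost (adjusted p = 0.168, alternatives spanning 6.23e-10 to 0.168). Mnt was at 22.7 RPM in Myc_KO, within the control range, and at 78.2 RPM in double_KO (Max_KO minus Myc_KO 1.9 ± 0.18, adjusted p = 0.00768). Pogk, a gene with a KRAB and a transposase-derived domain, was at 113 and 115 RPM in Max_KO, against 42.2 RPM in Myc_KO and 29.5 and 30.8 RPM in control (1.92 ± 0.09 from control, adjusted p = 0.000393; 1.43 ± 0.12 from Myc_KO, adjusted p = 0.00506). Tef, a transcription factor of the circadian output, was at 91.4 and 85.2 RPM in Max_KO, against 34.9 RPM in Myc_KO and 36.4 and 38.9 RPM in control (1.23 ± 0.1 from control, adjusted p = 0.000772). Pcx, pyruvate carboxylase, was at 53.7 and 46.6 RPM in Max_KO, against 15.7 RPM in Myc_KO and 16.8 and 19.2 RPM in control (1.48 ± 0.14 from control, adjusted p = 0.000838, lost with the descriptions at 0.051, with 1.16e-06 to 0.051 over the alternatives). For these genes Max_KO was above both controls and the Myc_KO library, which the way they were chosen required. The difference from Myc_KO was not called for any of these 5 with the descriptions taken as given. The limma adjusted p was then 0.497 for Stag3, 0.439 for Mnt, 0.447 for Pogk, 0.429 for Tef and 0.524 for Pcx. With the titles taken as given it was called for all 5, at 4.41e-05, 0.0165, 0.00043, 0.00809 and 0.00299 in the same order.

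The germline list, which holds known PRC1.6 targets, had called members on both sides of the controls. Of its 57 genes, 27 were in the table and 17 were tested, so most of the list was not tested. Of the tested genes 5 were higher and 2 lower, with a median log2 change of 0.29. Among all genes 21.8% were higher and 18.5% lower, with a median of 0.02. Leaving out control replicate 1 or control replicate 2 left 4 higher and 0 lower. Beside Stag3, the meiotic cohesin subunit Smc1b was at 1.56 and 4.64 RPM in Max_KO, against 0.124 and 0.0606 RPM in control (4.51 ± 0.73 SE, limma adjusted p = 0.00429). Only 3 reads stood behind the Smc1b controls: the ratio of reads was 33.6 (exact 95% interval 11.2 to 165, counting error only), and the log2 change was 1.77 to 5.29 over the alternatives. Zcwpw1, a histone reader of meiosis, was at 81.6 and 81.1 RPM, against 49.2 and 35.8 RPM (0.96 ± 0.16, adjusted p = 0.00432). Both were above the controls in both libraries. Ddx4 and Dazl, germ cell RNA-binding factors, were below the filter on low values. Of the 16 PRC1.6 subunits, 5 were higher, including Mga, and 2 were lower, including Max; leaving out control replicate 1 left 1 and 1, and leaving out control replicate 2 left 2 and 1.

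Antibody gene transcripts were lower in Max_KO. Of 13 constant region and joining chain genes, 11 fell and 1 rose, with a median log2 change of -1.37 against 0.02 for all genes. Jchain, which joins IgM and IgA into polymers, was at 37.3 and 35.4 RPM in Max_KO, against 210 and 255 RPM in control (-2.67 ± 0.12 SE, limma adjusted p = 0.000291). Among the switched heavy chains, Ighg2c was at 2 and 1.68 RPM, against 29.6 and 30.9 RPM (-4.03 ± 0.21, adjusted p = 0.000393), and Igha was at 2.94 and 3.3 RPM, against 40.5 and 35.1 RPM (-3.59 ± 0.18, adjusted p = 0.000393). Both of these, like Ighe, Ighg2b and Ighg3, were lower in both Max_KO libraries than in both controls. Ighe, the heavy chain of IgE, which IL-4 induces, was at 80.1 and 62.7 RPM, against 370 and 436 RPM (-2.5 ± 0.14, adjusted p = 0.000461). The kappa light chain Igkc was at 2478 and 2240 RPM, against 6160 and 6026 RPM (-1.37 ± 0.12, adjusted p = 0.000792; -0.84 after quantile normalization). Ighd, the heavy chain of IgD, carried by naive B cells and lost on activation, went the other way, at 613 and 555 RPM in Max_KO, against 186 and 148 RPM in control (1.82 ± 0.13, adjusted p = 0.000602).

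The 2 most abundant heavy chains changed less. Ighm was at 7126 and 6889 RPM in Max_KO, against 10500 and 10330 RPM in control (-0.57 ± 0.14 SE, limma adjusted p = 0.0188), and lost its call without any 1 of the 4 libraries, at adjusted p of 0.0628 to 0.235 (0.0017 to 0.235 over all alternatives); its change was -0.25 after quantile normalization. Ighg1, the heavy chain that LPS with IL-4 favours, was at 1572 and 1363 RPM, against 2673 and 2333 RPM (-0.77 ± 0.12, adjusted p = 0.0042). The Ighg1 call was lost without control replicate 1 (adjusted p = 0.0532), with the descriptions taken as given (0.0961) and after quantile normalization (log2 change -0.21, adjusted p = 0.12), with 0.000706 to 0.12 over the alternatives. Of 180 variable segments tested, counted after their values were seen, 66 were lower and 2 higher than in control, with a median of -0.41. RSEM divides reads among near-identical segments, so the counts per segment are uncertain, but their summed level was 2464 and 2371 RPM in Max_KO, against 3708 and 3834 RPM in control.

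**Figure D3:**
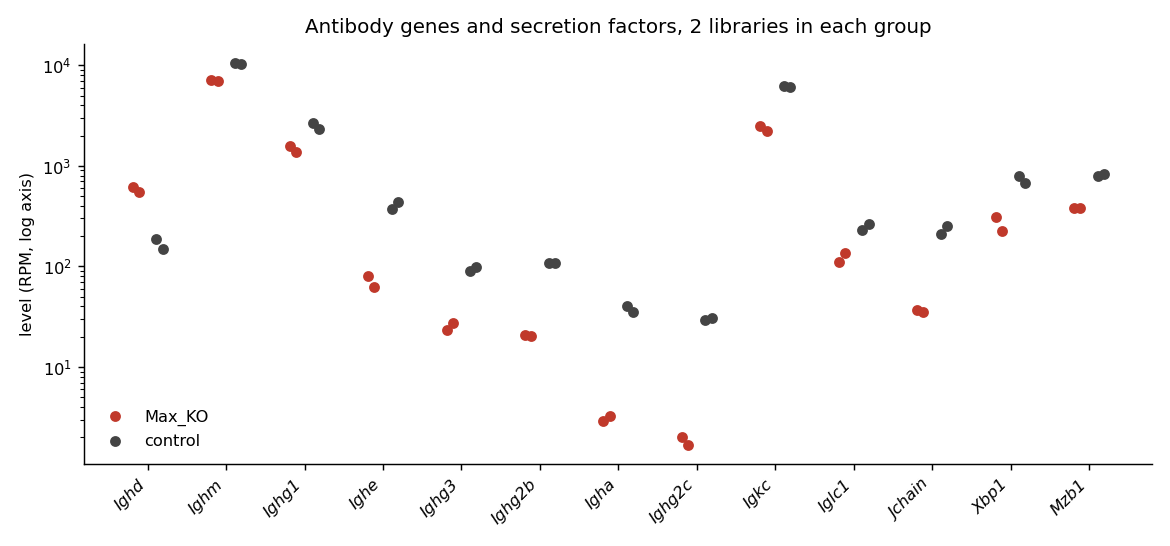
Level in RPM on a log axis for antibody genes and factors of secretion, with 2 libraries of Max_KO (red, left) and 2 of control (grey, right) per gene. Ighd lies above the controls in Max_KO and the other 12 genes lie below, with the widest gaps at Ighg2c and Igha.

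The list of 32 factors of class switching and somatic mutation moved both ways, with 10 higher and 6 lower; without control replicate 1 these were 5 and 1 and without control replicate 2 they were 4 and 2. Among all genes 21.8% were higher and 18.5% lower, and the lower count of this list was near that share. Ung, a uracil glycosylase, rose (0.95 ± 0.1 SE, limma adjusted p = 0.00109). Rev3l, a subunit of a mutagenic polymerase, rose as well (1.2 ± 0.09, adjusted p = 0.000707, and 0.54 with the length and GC trend removed). Ung was lost with the descriptions taken as given (0.0947, with 1.07e-05 to 0.0947 over the alternatives). Neil1, a base excision glycosylase outside this list, was at 19.5 and 18.7 RPM in Max_KO, against 124 and 142 RPM in control (-2.8 ± 0.11, adjusted p = 0.000291), among the lowest p-values of the comparison.

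Some factors of antibody secretion fell with the antibody genes. Xbp1, which drives expansion of the secretory pathway, was at 310 and 225 RPM in Max_KO, against 793 and 680 RPM in control (-1.48 ± 0.16 SE, limma adjusted p = 0.00119), and Mzb1, a chaperone of IgM assembly, was at 382 and 378 RPM, against 791 and 838 RPM (-1.1 ± 0.08, adjusted p = 0.000699; -0.66 with the length and GC trend removed). Both were lower in both libraries. The share among all genes was 18.5% lower and 21.8% higher. Of 23 tested genes on the plasma cell list, 8 were lower, 3 were higher and 12 were not called. The higher ones included Cd38 (1.25 ± 0.11, adjusted p = 0.000786) and the BAFF and APRIL receptor Tnfrsf13b (1.09 ± 0.1, adjusted p = 0.000814). Whether these 2 mark plasma cells in these cultures was not tested. Leaving out control replicate 1 or control replicate 2 left 4 lower and 2 higher. Of 33 genes of the unfolded protein response and secretion, 15 were lower and 2 higher (median -0.31), with 4 and 1 without control replicate 1 and 6 and 2 without control replicate 2; the lower ones included the translocon subunit Sec61b and Creld2. Dnajb9, an induced chaperone cofactor, rose instead, at 53.9 and 57.8 RPM in Max_KO, against 21.2 and 24.9 RPM in control (1.28 ± 0.13, adjusted p = 0.000998).

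Part of this antibody change was also seen against Myc_KO, a test with 1 undisputed Myc_KO library and the Max_KO libraries of the control comparison. Jchain was at 281 RPM in Myc_KO and 261 RPM in double_KO, and the log2 difference was -2.95 ± 0.14 for Max_KO minus Myc_KO (limma adjusted p = 0.00063) and -2.84 for Max_KO minus double_KO (adjusted p = 0.00317). In the disputed libraries Jchain was at 137 RPM in Myc_KO replicate 1, below both controls, and at 260 RPM in double_KO replicate 2. Ighg3 was at 23.6 and 27.3 RPM in Max_KO, against 109 RPM in Myc_KO, 95 RPM in double_KO and 90.1 and 98.8 RPM in control. It was thus low in the Max_KO libraries and near the controls in the other 2 undisputed ones. The 12489 genes tested held 180 variable segments and 13 constant region and joining chain genes. The summed level of the segments was 4409 RPM in the Myc_KO library, 4080 RPM in double_KO and 3708 and 3834 RPM in control. In the disputed Myc_KO replicate 1 it was 3073 RPM, and in double_KO replicate 2 it was 3746 RPM. Of the 180 variable segments, 46 were lower and 0 higher in Max_KO than in Myc_KO, with a median difference of -0.79 against 0 for all genes. Of the 80 genes called lower in Max_KO than in control and than in Myc_KO, 35 were immunoglobulin genes, and of the 24 that differed from double_KO, 9 were.

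**Figure D4:**
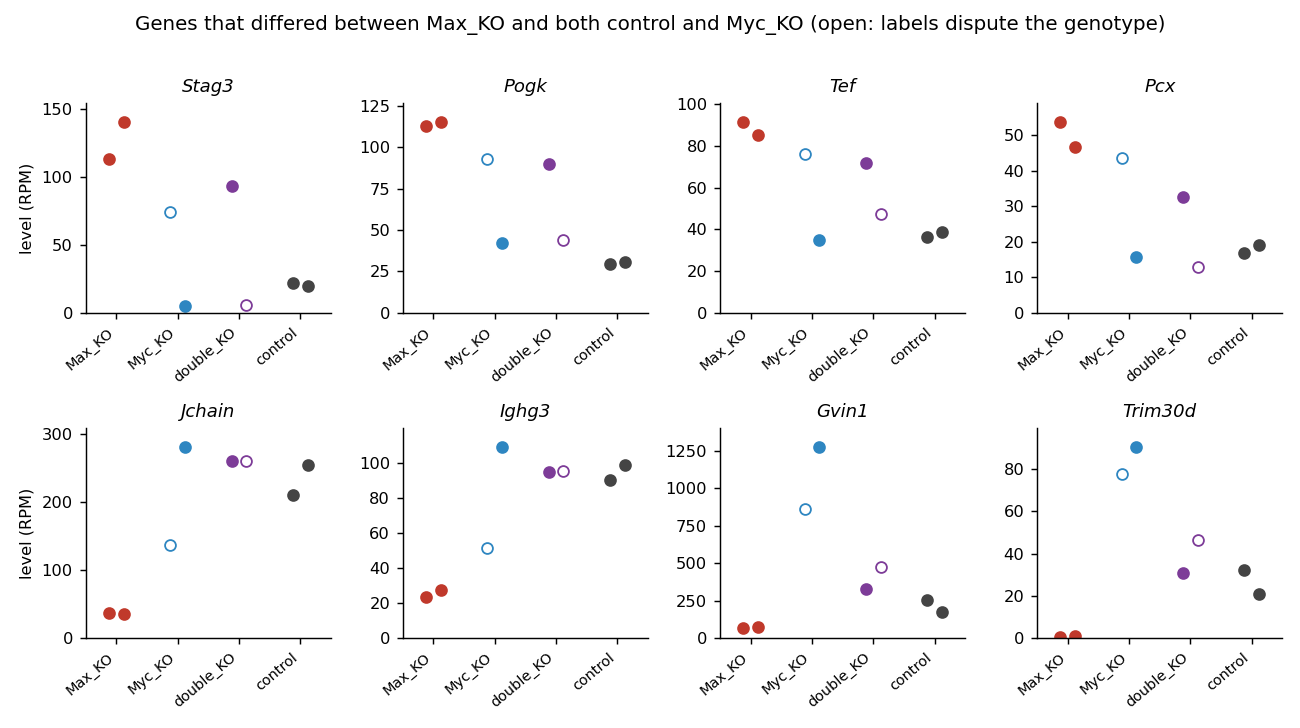
Level in RPM of 8 genes in each library, from left to right Max_KO, Myc_KO, double_KO and control; open circles are the 2 libraries with disputed genotype. In the top row Max_KO is above both controls and the filled Myc_KO point; in the bottom row it is below them.

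Transcription factors of B cell identity were mostly higher. Of 29, 17 rose and 2 fell, with a median of 0.53; without control replicate 1 these were 9 and 1 and without control replicate 2 they were 9 and 2. Pax5, which maintains the B cell programme, was at 979 and 1406 RPM in Max_KO, against 382 and 375 RPM in control (1.63 ± 0.16 SE, limma adjusted p = 0.00101). Bach2, a repressor of plasma cell differentiation, was at 173 and 227 RPM, against 59.3 and 67.7 RPM (1.64 ± 0.14, adjusted p = 0.000786), Foxp1 at 276 and 368 RPM, against 99.7 and 92.4 RPM (1.73 ± 0.14, adjusted p = 0.000762), and Ebf1 at 121 and 149 RPM, against 55 and 54.3 RPM (1.3 ± 0.12, adjusted p = 0.000814). In each of these Max_KO replicate 2 was the higher library and both were above both controls. The exceptions were Tcf3, encoding the E2A proteins (-0.74 ± 0.11, adjusted p = 0.00307), and Mef2b, a transcription factor of germinal centre B cells, at 8.39 and 10.8 RPM, against 38.2 and 34.7 RPM (-1.93 ± 0.17, adjusted p = 0.000792). The Tcf3 call was lost without control replicate 1 (0.0532), with 3.64e-06 to 0.0532 over the alternatives. With the trend on length and GC removed 12 rose and 2 fell, and the Tcf3 change was -0.42.

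Genes of B cell receptor signalling rose with them, 24 of 43 against 1 that fell, with a median of 0.33; leaving out control replicate 1 left 14 and 1, and leaving out control replicate 2 left 15 and 1. Ptprc, the CD45 phosphatase, was at 697 and 771 RPM in Max_KO, against 306 and 323 RPM in control (1.22 ± 0.09 SE, limma adjusted p = 0.000644; 0.79 with the length and GC trend removed). The kinase Syk was at 610 and 575 RPM, against 273 and 285 RPM (1.09 ± 0.08, adjusted p = 0.000707), and the Ras activator Rasgrp3 at 109 and 111 RPM, against 34.7 and 41.6 RPM (1.54 ± 0.12, adjusted p = 0.000644). Negative regulators rose as well, among them the ubiquitin ligase Cblb (1.9 ± 0.2, adjusted p = 0.00116) and the phosphatase Ptpn22 (0.83 ± 0.09, adjusted p = 0.00132). Cd81, a tetraspanin of the B cell coreceptor, was the 1 that fell, at 112 and 103 RPM, against 168 and 187 RPM (-0.72 ± 0.1, adjusted p = 0.0022). The adaptor Lax1, which restrains antigen receptor signals and is not on this list, was at 30.4 and 32 RPM in Max_KO, against 134 and 135 RPM in control (-2.11 ± 0.09, adjusted p = 0.000291).

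Of 24 genes of Toll-like receptors and LPS sensing, 13 rose and 2 fell (median 0.42), with 6 and 1 without control replicate 1 and 8 and 1 without control replicate 2. Tlr9, a sensor of unmethylated DNA, was at 92.2 and 116 RPM in Max_KO, against 22.6 and 27.7 RPM in control (2.04 ± 0.15 SE, limma adjusted p = 0.000644), and Tlr7, a sensor of RNA, at 147 and 137 RPM, against 61.9 and 73 RPM (1.08 ± 0.11, adjusted p = 0.00102). Both Max_KO libraries were above both controls for each. Tlr4, the LPS receptor, was at 11.5 and 24.1 RPM, against 4.11 and 3.94 RPM (2.04 ± 0.35, adjusted p = 0.0049), lost without control replicate 1 (0.063) and without control replicate 2 (0.0587), with 1.23e-06 to 0.063 over the alternatives. Sigirr, an inhibitory receptor of the family, was at 19.4 and 18.9 RPM, against 43.2 and 46.4 RPM (-1.22 ± 0.12, adjusted p = 0.000921). Of 24 NF-kB genes, 8 rose and 1 fell, with 2 and 0 left without control replicate 1 and 3 and 0 without control replicate 2; Traf3, which degrades the kinase Nik, rose by 0.88 ± 0.11 (adjusted p = 0.00171). Of 16 genes of MHC class II presentation, 6 rose and 4 fell, with 3 and 0 and with 4 and 0 left without control replicates 1 and 2 and 10 and 3 with the length and GC trend removed. Ciita, their master coactivator, was at 423 and 549 RPM, against 168 and 198 RPM (1.4 ± 0.14, adjusted p = 0.00106). For the lists of this paragraph, the share among all genes was 21.8% higher and 18.5% lower. The lower counts of the MHC class II and IL-4 lists were near it. The IL-4 list of 20 genes had 7 higher and 3 lower, with 2 and 2 and with 4 and 2 left without control replicates 1 and 2; Jak1 rose to 463 and 506 RPM in Max_KO, against 248 and 249 RPM in control (0.96 ± 0.09, adjusted p = 0.000792).

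Of 25 factors known from lymphocyte quiescence, 13 rose and 3 fell (median 0.47), with 4 and 2 without control replicate 1, 7 and 2 without control replicate 2. The numbers were 15 and 5 without Max_KO replicate 1. Klf3 was at 67.8 and 63.7 RPM in Max_KO, against 29.5 and 27.8 RPM in control (1.2 ± 0.11 SE, limma adjusted p = 0.000792), and Slfn2, whose loss in mice ends T cell quiescence, at 256 and 295 RPM, against 171 and 164 RPM (0.71 ± 0.1, adjusted p = 0.00233). Ccng2, an atypical cyclin of arrested cells, went down, at 19.9 and 13.2 RPM, against 55.6 and 70.4 RPM (-1.94 ± 0.22, adjusted p = 0.00127). The list thus held members on both sides of the controls.

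Proliferation genes showed smaller changes. Of 45 DNA replication genes 9 were lower and 3 higher (median -0.1), and of 45 mitosis genes 15 were lower and 4 higher (median -0.11), against 18.5% lower and 21.8% higher among all genes. With each library set to the same total, replication genes were 11 higher and 6 lower and mitosis genes 11 higher and 11 lower, so these lists have no direction that holds under both scalings. With the length and GC trend removed the mitosis list had 20 lower and 1 higher (median -0.29). Without control replicate 1 the replication list had 0 lower and 1 higher and the mitosis list 3 and 0, and without control replicate 2 they had 0 and 1 and 6 and 0. Cdc25b, a phosphatase that opens mitosis, was at 79.4 and 73 RPM in Max_KO, against 183 and 174 RPM in control (-1.23 ± 0.09 SE, limma adjusted p = 0.000644), and Aurka, a spindle kinase, at 49 and 52.2 RPM, against 85.8 and 82.8 RPM (-0.74 ± 0.09, adjusted p = 0.00197). Pola1, the catalytic subunit of polymerase alpha, rose, at 82 and 79.1 RPM, against 44.2 and 45.8 RPM (0.84 ± 0.09, adjusted p = 0.00132; 0.44 with the trend removed). Of 22 G1 regulators, 8 rose and 2 fell, with 3 and 0 left without control replicate 1 and 3 and 1 without control replicate 2. Ccnd2, which encodes cyclin D2, was at 1472 and 1600 RPM, against 579 and 540 RPM (1.46 ± 0.1, adjusted p = 0.000499), and the retinoblastoma genes Rb1 (0.85 ± 0.1, adjusted p = 0.00133; 0.51 with the trend removed) and Rbl1 (0.99 ± 0.09, adjusted p = 0.000814) rose beside it. Activators and inhibitors of the G1 step were thus both among the higher genes.

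Of 30 CDK inhibitors and p53 targets, 15 fell and 3 rose (median -0.42), with 7 and 1 without control replicate 1 and 5 and 1 without control replicate 2. Cdkn1a, the p21 inhibitor, was at 16.7 and 10.9 RPM in Max_KO, against 43.4 and 62 RPM in control (-1.94 ± 0.25 SE, limma adjusted p = 0.00189), and Phlda3, a p53 target that inhibits Akt, at 9.06 and 7.82 RPM, against 22.5 and 28 RPM (-1.57 ± 0.18, adjusted p = 0.00139). Both libraries were below both controls. Zmat3 (-1.33 ± 0.17, adjusted p = 0.00185) and Plk2 (-1.82 ± 0.24, adjusted p = 0.00212) fell likewise. In the Bcl2 family of 18 genes 3 rose and 3 fell, against 21.8% higher and 18.5% lower among all genes. Bcl2, which protects cells from apoptosis, was at 139 and 139 RPM, against 62.9 and 60.7 RPM (1.17 ± 0.09, adjusted p = 0.000644). Without control replicate 1 the family had 1 higher and 0 lower, without control replicate 2 it had 1 and 1, and without either Max_KO library it had 3 and 5. With the length and GC trend removed it had 5 and 2, and the Bcl2 change was 0.7.

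Ribosomal protein genes fell as a block. Of 82 cytosolic genes tested, 80 were lower and 0 higher, with a median of -0.93. Rpl32 was at 784 and 871 RPM in Max_KO, against 2156 and 1902 RPM in control (-1.29 ± 0.11 SE, limma adjusted p = 0.000786; -0.79 after quantile normalization). Both Max_KO libraries were below both controls. After quantile normalization 72 were lower with a median of -0.48, and with the trend on length and GC removed 74 were lower and 1 higher, with a median of -0.68. Copies of these genes elsewhere in the genome can take part of their reads. Of 59 mitochondrial ribosomal proteins 26 fell and 0 rose (median -0.34), with 2 without control replicate 1 and 7 without control replicate 2.

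Ribosome assembly factors were mixed, with 14 of 40 lower and 6 higher; without control replicate 1 these were 3 and 3 and without control replicate 2 they were 9 and 3. Nop56, a nucleolar methylation factor, was at 212 and 202 RPM in Max_KO, against 400 and 342 RPM in control (-0.84 ± 0.1 SE, limma adjusted p = 0.00163), and Npm1, nucleophosmin, at 749 and 776 RPM, against 1417 and 1221 RPM (-0.79 ± 0.1, adjusted p = 0.00226; -0.38 after quantile normalization). Both fell in both libraries. Utp20, a scaffold of the small subunit processome, went the other way, at 120 and 128 RPM, against 64.9 and 60.4 RPM (0.98 ± 0.09, adjusted p = 0.000884), with a change of 0.44 once the length and GC trend was removed. Of all genes tested, 21.8% were higher and 18.5% lower. The higher counts of the lists in this paragraph were below that share. Of 28 textbook Myc-induced genes, 13 fell and 2 rose (median -0.39), with 3 and 1 without control replicate 1 and 8 and 1 without control replicate 2. Of 25 translation factors 12 fell and 3 rose, with 3 and 2 and with 6 and 2 left without control replicates 1 and 2 and 9 and 1 with the trend removed; Eef1b2, an elongation factor subunit, was at 559 and 562 RPM, against 1282 and 1186 RPM (-1.14 ± 0.09, adjusted p = 0.000707).

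Of 73 nuclear genes of the respiratory chain, 58 fell and 1 rose, with a median of -0.48. This count depended on the length and GC trend: with it removed 25 fell and 1 rose, with a median of -0.17. Without control replicate 1, 7 fell, and without control replicate 2, 23 fell. Ndufv3, a subunit of complex I, was at 61.6 and 49.4 RPM in Max_KO, against 145 and 150 RPM in control (-1.42 ± 0.12 SE, limma adjusted p = 0.000786), and Atp5d, a subunit of the ATP synthase, at 145 and 137 RPM, against 274 and 255 RPM (-0.91 ± 0.09, adjusted p = 0.00092; -0.49 with the trend removed). All 13 transcripts of mitochondrial DNA were lower (median -0.93), with 7 without control replicate 1, 8 after quantile normalization and 8 with the trend removed. mt-Nd1 was at 1891 and 1693 RPM, against 4267 and 3193 RPM (-1.04 ± 0.16, adjusted p = 0.00348; -0.47 after quantile normalization). Of 25 import factors and chaperones 13 fell and 0 rose, with 0 and 4 lower without control replicates 1 and 2 and 5 lower with the trend removed.

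Glycolysis genes fell, 14 of 25 with 0 higher and a median of -0.88, but the Max_KO libraries differed. Gapdh was at 3109 and 2310 RPM in Max_KO, against 6373 and 5729 RPM in control (-1.17 ± 0.17 SE, limma adjusted p = 0.00287; -0.64 after quantile normalization), and Pfkm, the muscle-type phosphofructokinase, at 11.4 and 11.6 RPM, against 28.3 and 29.7 RPM (-1.33 ± 0.14, adjusted p = 0.00107). Leaving out control replicate 1 or control replicate 2 left 3 lower, and taking the descriptions as given in a fit of all 8 libraries left 6. The oxygen and hypoxia list had 10 of 24 lower and 3 higher (median -1), and without either control 0 were lower and 1 was higher, while without Max_KO replicate 1 16 were lower and 4 higher. Egln3, an oxygen-sensing hydroxylase, was at 13.8 and 3.18 RPM, against 69.9 and 60.2 RPM (-3.28 ± 0.59, adjusted p = 0.00605), with adjusted p of 0.0802 and 0.063 without control replicates 1 and 2 and 6.77e-11 to 0.0965 over the alternatives. For Gapdh and Egln3, Max_KO replicate 1 was the library nearer to the controls. Hif1a, the oxygen-regulated subunit of the hypoxia factor, rose, at 131 and 123 RPM, against 59.5 and 60.3 RPM (1.08 ± 0.09, adjusted p = 0.000786).

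Of 29 genes of cholesterol and fatty acid synthesis, 17 fell and 2 rose (median -0.45), with 7 lower and 0 higher without control replicate 1, and 7 and 2 without control replicate 2. Leaving out Max_KO replicate 1 gave 18 lower and 5 higher. Fdps, which makes farnesyl diphosphate, was at 160 and 136 RPM in Max_KO, against 298 and 292 RPM in control (-1 ± 0.1 SE, limma adjusted p = 0.00102), and Pmvk of the mevalonate pathway at 31.8 and 29.8 RPM, against 62 and 64.5 RPM (-1.04 ± 0.1, adjusted p = 0.00101; -0.67 with the length and GC trend removed). Both libraries were below both controls. Of 29 nucleotide synthesis genes 11 fell and 3 rose, with 2 and 5 lower and 0 higher without control replicates 1 and 2, and 14 lower and 0 higher with the trend removed; Impdh2, the rate-limiting enzyme of guanine nucleotide synthesis, was at 231 and 229 RPM, against 390 and 359 RPM (-0.7 ± 0.08, adjusted p = 0.00159). Phgdh, the first enzyme of serine synthesis, was at 98.3 and 113 RPM, against 257 and 235 RPM (-1.22 ± 0.1, adjusted p = 0.000786), and the spermine oxidase Smox at 1.72 and 1.12 RPM, against 8.03 and 11.5 RPM (-2.77 ± 0.34, adjusted p = 0.00167).

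**Figure D5:**
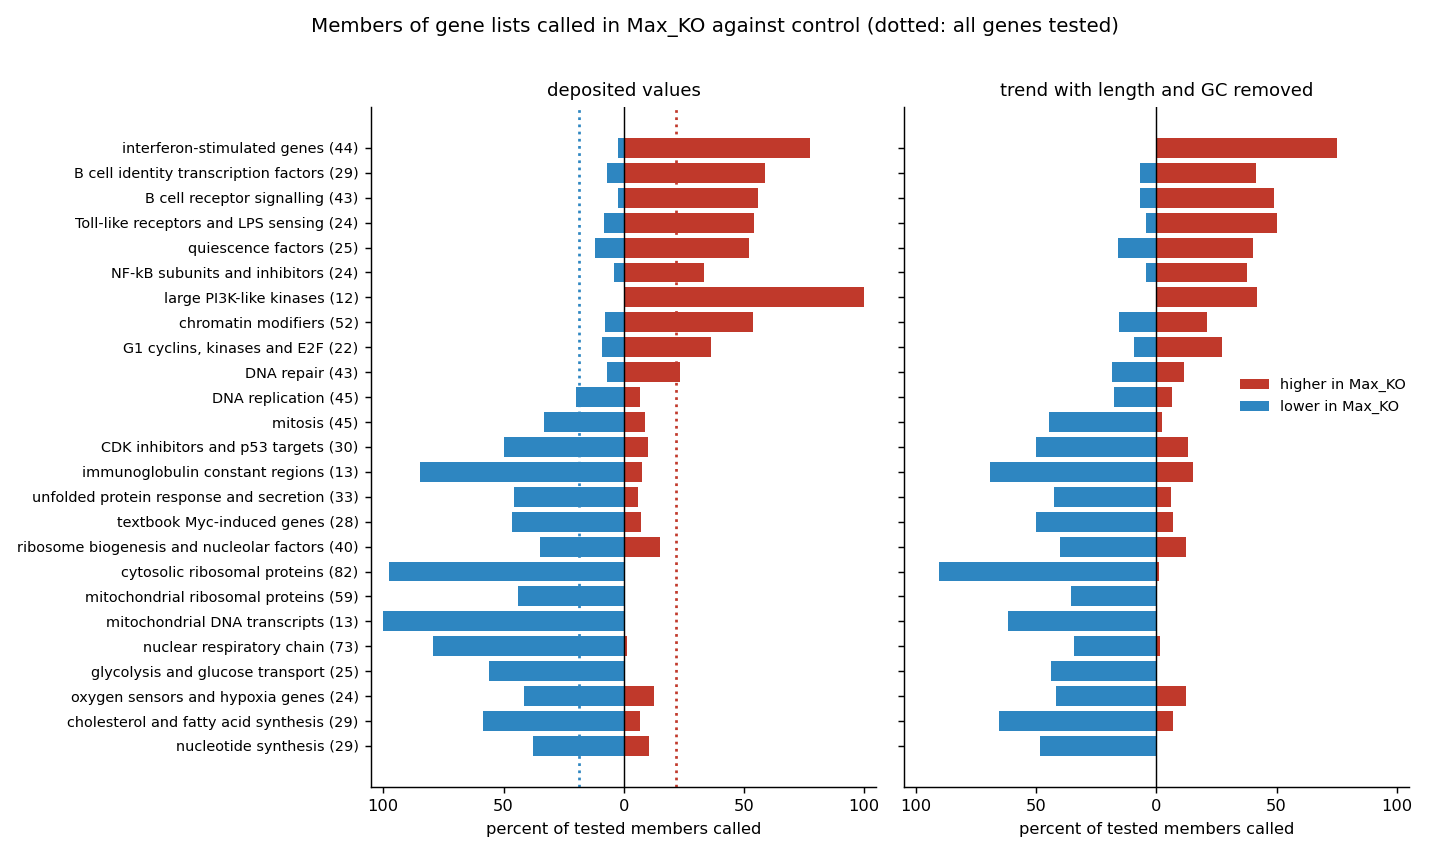
Percent of the tested members (number in parentheses) of 25 gene lists called higher (red, to the right) or lower (blue, to the left) in Max_KO than in control, with deposited values (left) and with the trend on transcript length and GC removed (right). Dotted lines mark 21.8% higher and 18.5% lower among all genes tested; the bars for large kinases, chromatin modifiers and the nuclear respiratory chain shrink at right.

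Lists of long genes also depended on that trend. Among all genes 21.8% were higher and 18.5% lower, and the higher count of DNA repair genes was near that share. All 12 large PI3K-like kinases and ubiquitin ligases were higher (median 0.7), and with the trend removed 5 were past the threshold with a median of 0.11; without control replicate 1 7 were. Atm, the kinase of the DNA break response, was at 254 and 390 RPM in Max_KO, against 58.3 and 61 RPM in control (2.4 ± 0.19 SE, limma adjusted p = 0.000707), and kept its call under all alternatives run (at most 0.0312). Of 52 chromatin modifiers, 28 rose and 4 fell, against 11 and 8 with the trend removed, 8 and 1 without control replicate 1, and 8 and 1 without control replicate 2. The acetyltransferase Kat6a was at 188 and 225 RPM, against 71.8 and 70.2 RPM (1.53 ± 0.11, adjusted p = 0.000613; 1 with the trend removed), and Hdac7, a class II deacetylase, was at 104 and 68.5 RPM, against 223 and 231 RPM (-1.43 ± 0.18, adjusted p = 0.00197). Of 43 DNA repair genes 10 rose and 3 fell, against 5 and 8 with the trend removed, 2 and 0 without control replicate 1, and 5 and 1 without control replicate 2. They were 11 and 7 without Max_KO replicate 1.

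Interferon-stimulated genes were higher, 34 of 44 against 1 lower, with a median of 1.12 that was 1.14 with the trend removed. Without control replicate 1 the numbers were 19 and 0, and without control replicate 2 they were 22 and 0. The immunity-related GTPase Irgm1 was at 192 and 160 RPM in Max_KO, against 54 and 47.9 RPM in control (1.79 ± 0.12 SE, limma adjusted p = 0.000561), and Tgtp2 at 126 and 116 RPM, against 15.5 and 17.6 RPM (2.87 ± 0.12, adjusted p = 0.000291). Tgtp2 and its near-copy Tgtp1 share reads. Iigp1 was at 54.9 and 28.7 RPM, against 0.436 and 2 RPM (5.35 ± 0.66, adjusted p = 0.00175). Each of these was above both controls in both Max_KO libraries, and the labels name no interferon among the additions.

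In the Trim cluster of chromosome 7, which encodes antiviral proteins, neighbours moved in opposite directions. The transcript of Trim30d (chromosome 7, 104470014 to 104507849) stood at 0.537 and 0.732 RPM in Max_KO, against 90.5 RPM in Myc_KO, 30.8 RPM in double_KO and 32.1 and 20.6 RPM in control (-5.3 ± 0.33 SE from control, limma adjusted p = 0.00047; -7.11 ± 0.34 from Myc_KO, adjusted p = 0.00063). Trim5 (104263386 to 104288094) and Trim12a (104299894 to 104315466) fell with it, with log2 changes of -4 and -5.81. Trim30c (104382065 to 104400837) was at 8.33 and 11.3 RPM, against 0.747 and 1.03 RPM (3.42 ± 0.33, adjusted p = 0.000936), and Trim30a was higher as well (0.88 ± 0.09, adjusted p = 0.000941). Of the 13 members tested 5 rose and 5 fell. Gvin1, a large interferon-induced GTPase further along the chromosome (106156556 to 106215326), was at 67.6 and 75.4 RPM in Max_KO, against 1276 RPM in Myc_KO, 327 RPM in double_KO and 251 and 176 RPM in control (-1.56 ± 0.17 from control, adjusted p = 0.00116). These genes have close copies, and how RSEM divided reads among them was not tested.

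Transcripts of other cell types were at low levels but moved with the groups. Of 18 T cell markers, 11 were higher and 1 lower, with a median of 1.86; 1 and 7 were higher without control replicates 1 and 2. Their summed level was 335 and 276 RPM in Max_KO, against 378 and 331 RPM in control, most of it from Thy1 and Cd2. Cd8a was at 7.17 and 10.1 RPM, against 0.996 and 1.33 RPM (2.85 ± 0.33 SE, limma adjusted p = 0.00137). Of 7 tested NK and cytotoxic markers 6 were higher, with 4 without either control, and their list summed to 96.2 and 156 RPM in Max_KO, against 43.5 and 40.6 RPM in control. Gzmb, a cytotoxic granule protease, was at 25.2 and 53.8 RPM, against 2.18 and 1.21 RPM (4.47 ± 0.42, adjusted p = 0.000862), while the NK genes Ncr1, Klrd1 and Klrk1 were at or near 0 in the table and below the filter. Of 6 tested myeloid markers 3 were higher and 2 lower, with 1 and 0 without control replicate 1 and 1 and 1 without control replicate 2, and Lyz2 and Csf1r, defining markers, were below the filter. The part of such cells in the interferon and granzyme values was not tested.

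The highest log2 change of any called gene was that of Gm4969, a protein-coding gene of chromosome 7 with a Gm symbol. It was named after its values were seen. It was at 23.9 and 30.7 RPM in Max_KO, against 0 RPM in Myc_KO, 15.2 RPM in double_KO and 0.124 and 0.0606 RPM in control, a ratio of reads to control of 296 (exact 95% interval 101 to 1439, counting error only). The limma log2 change was 7.83 ± 0.42 SE (adjusted p = 0.00042), not called with the descriptions taken as given (0.0512, with 1.8e-07 to 0.0512 over the alternatives). Among the largest changes of genes with an assigned name outside these groups, Met, the hepatocyte growth factor receptor, was at 5.67 and 8.99 RPM in Max_KO, against 0 and 0.0606 RPM in control, a ratio of reads of 238 (exact 95% interval 42.4 to 9455, counting error only). Slit3, a guidance factor, was at 8.06 and 7.21 RPM, against 0.373 and 0.728 RPM (3.79 ± 0.41 SE, limma adjusted p = 0.00121; 2.46 to 4.24 over the alternatives). The lowest included the metallothioneins Mt1, at 2.44 and 1.9 RPM, against 26.4 and 27.3 RPM (-3.62 ± 0.22, adjusted p = 0.00047), and Mt2, at 0.667 and 0.391 RPM, against 10.5 and 10.6 RPM (-4.3 ± 0.37, adjusted p = 0.000786). The mucin Muc1 was at 0.389 and 0.391 RPM, against 7.03 and 7.34 RPM (-4.11 ± 0.35, adjusted p = 0.000786; -4.14 to -2.53 over the alternatives). Lrrk2, a large kinase of B cells and macrophages, was at 102 and 115 RPM, against 22 and 22.4 RPM (2.29 ± 0.11, adjusted p = 0.000393). The libraries of the groups did not overlap for any of these genes, which the choice of all but Lrrk2 and Gm4969 required.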

How the data were processed

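RNA-seq was available for 8 libraries of activated splenic B cells, 2 in each of 4 groups by the descriptions. Per the submitters' processing notes, reads were handled with CASAVA 1.8, cutadapt and RSEM 1.2.3 on GRCm38; their annotation, strand setting and scaling were not stated. The authors deposited log2 values. They equal log2 of estimated reads plus 0.5 per M effective reads, to within 0.0005 read, and RPM here is the value without the added 0.5. RSEM splits the reads of gene copies, so values of such genes are uncertain.

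Genes with a log2 value of at least 0 in 2 of the 8 libraries were fitted with limma 3.58.1 (R 4.3.3, moderated test with trend, Benjamini-Hochberg adjustment over 12489 genes) on the 4 libraries; a call is an adjusted p under 0.05, two-sided. The planned log2(value + 1) was not used, since the values are already log2. Differences from Myc_KO and double_KO used the 6 undisputed libraries. Tables were made with Python 3.11.15. The fit was checked on simulated data. Deviations of same-numbered libraries had a correlation of -0.11, which with 2 libraries per group cannot show whether libraries were paired. Same-numbered libraries also differed in Xist and Ddx3y.

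The comparison, the gene lists and the rule for named genes were chosen with earlier results of these data known. The rule took the network and the 12 highest and 12 lowest changes without overlap at 5 RPM or more. From these changes it left out genes with Gm or Rik symbols, antigen receptor segments and genes without a symbol. It also took the 8 lowest p-values, up to 4 called and 2 uncalled members per list, and the 6 highest and lowest differences from Myc_KO. Other genes, among them Cblb, Cd81, Gm4969, Hdac7, Ighd, Ighg1, Ighg3, Igkc, Pcx, Plk2, Ptpn22, Rpl32, Sec61b, Slfn2, Tcf3, Tef, Tlr4 and Trim30a, were named after their values were seen. Alternatives covered the scaling, filter, added constant, variance model, genotype labels, replicate block, each library left out, and removal of a trend on length and GC, which was added after seeing the data. Promoters are from RefSeq, GRCm38.p6, and none is printed for chromosome 18. Some genes are not reported here.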

Additional observations from a re-analysis of the deposited data

How the results depend on the processing

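The number of genes called in Max_KO against control was 5027. It was 1229 to 6327 with 1 library left out, with 748 to 3258 higher (2720 in the full comparison) and 481 to 3069 lower (2307); the low ends are without control replicate 1. At an adjusted p under 0.01 the counts were 2578, 1455 and 1123, and with a change of at least 2-fold 1574, 678 and 896. The other alternatives moved these counts by less than 1.5 times. Against Myc_KO, 220 genes were higher and 150 lower; the counts were 4 and 9 with the descriptions taken as given and 96 and 57 without a filter on low values, and with a Max_KO library left out 810 to 867 and 771 to 792. The cause was not tested. The labels give no pairing, and the main fit used none. The replicate block gave 5324 called genes, and pairing the libraries with crossed numbers, chosen after seeing the data, gave 4867. The crossed pairs matched libraries by Xist and Ddx3y. Depth limits genes near 1 RPM, where few reads stand behind a value.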
